A study of Mus musculus with 4 samples.

Results

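Them4 and Them5 are neighbouring genes on mouse chromosome 3 that lie outside the Epidermal Differentiation Complex (EDC), in the gene-rich topologically associating domain called TAD6. The spatial contacts described here are those with at least 1 restriction fragment whose midpoint falls between 94.090 and 94.155 Mb (mm9), a window that holds both genes. The window covers 13 of the 712 fragments of the locus, all of them in TAD6, and 3842 of the 111588 contacts that at least 1 library listed. All 4 libraries listed 560 of the window's contacts, out of 23395 in the whole locus. The window was chosen because a fragment just upstream of Them5 had a very strong contact with the enhancers E2 and E3 in keratinocytes, so that contact is given as a description and supports nothing else.

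The contacts were measured by 5C (Chromosome Conformation Capture Carbon Copy), in which chromatin is fixed, cut with HindIII and religated, and probes at the fragment ends are joined where a pair of fragments was ligated together. The 4 libraries came from C57BL/6 newborn mice with no genetic change or treatment, 2 from primary epidermal keratinocytes freshly plated in low calcium medium and 2 from total primary thymocytes released from the thymus. The study calls the 2 libraries of a cell type biological replicates, and the labels do not give the animals behind each, so a p-value here measures the spread between libraries. 5C holds no expression, and the labelled cell types could not be checked against marker genes.

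Them4 and Them5 encode related acyl-CoA thioesterases of the mitochondrion, enzymes that split fatty acyl groups from coenzyme A. THEM4 is also known as CTMP, a protein that binds the kinase Akt, and THEM5 takes part in the remodelling of cardiolipin, the lipid of the inner mitochondrial membrane. The EDC itself holds the genes of the cornified envelope (Lor, Ivl, the Sprr and Lce families), the Flg-like genes and S100 genes, which are switched on as keratinocytes differentiate. Within a TAD, fragments meet more often than across its borders, and enhancers can meet distant promoters by looping.

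On mm9 with GENCODE M1 annotation, Them4 (ENSMUSG00000028145.7) lies at chr3:94114011-94136462 and Them5 (ENSMUSG00000028148.5) at chr3:94146021-94151274, both on the plus strand. The 13 fragments are numbered here along the chromosome. Fragments 1 to 4 lie before Them4, and fragment 5 (chr3:94112641-94118236) holds the start of Them4. Fragments 6, 7 and 8 lie in the body of Them4, fragments 9 and 10 between both genes, fragment 11 (chr3:94144558-94151530) holds the whole of Them5, and fragments 12 and 13 lie beyond it. Fragment 10 (chr3:94144432-94144557), called the Them5 upstream fragment below, ends 1464 bp before the start of Them5 and measures 126 bp. Only 2 of the 712 fragments are shorter, and the median is 2176.5 bp.

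The whole Them5 upstream fragment is shown because the window was chosen on it. It runs on the plus strand of mm9, and capitals mark the bases left of the HindIII site at either end.
Them5 upstream fragment: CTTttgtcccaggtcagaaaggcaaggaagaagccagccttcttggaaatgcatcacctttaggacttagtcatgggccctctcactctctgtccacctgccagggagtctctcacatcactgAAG

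Its GC content is 51.6%, the highest of the 13 fragments, whose lowest value is 37.9%; the median over all fragments is 42.3%. The next sequences are the stretches of 30 bases at the probed ends of the fragments that carry the results. The first is on the plus strand at chr3:94144528-94144557, the others are on the minus strand at chr3:90332041-90332070, chr3:94151501-94151530 and chr3:94118207-94118236, and capitals again mark the bases of the cut site. The S100a14 fragment is marked as in E2 and E3 because it lies within 10 kb of both.
Them5 upstream fragment end: cctgccagggagtctctcacatcactgAAG
S100a14 fragment end, in E2 and E3: CTTccaaactccagtttcgagtcattacag
Them5 gene fragment end (fragment 11): CTTccttctgagtatctctggttcatggag
Them4 start fragment end (fragment 5): CTTgtatttagtaagcacagcaccctcacc

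The first pair of these ends, ligated at the restored site, gives the product that was counted for the contact with E2 and E3, with the site's bases in capitals.
Them5 upstream to S100a14 junction: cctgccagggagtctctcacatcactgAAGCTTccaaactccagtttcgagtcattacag

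The bases just upstream of each gene's annotated start are shown to compare the starts of the pair, with CpG dinucleotides in capitals. They were matched from RefSeq promoters (GRCm38.p6), each found once as an exact match on the plus strand of mm9 chromosome 3. The places are chr3:94113804-94114010 for Them4 and chr3:94145771-94146020 for Them5.
Them4 upstream: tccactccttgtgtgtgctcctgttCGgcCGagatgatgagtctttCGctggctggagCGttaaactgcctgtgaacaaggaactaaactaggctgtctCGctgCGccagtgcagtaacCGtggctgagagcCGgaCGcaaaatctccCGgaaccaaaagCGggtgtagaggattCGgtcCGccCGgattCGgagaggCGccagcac
Them5 upstream: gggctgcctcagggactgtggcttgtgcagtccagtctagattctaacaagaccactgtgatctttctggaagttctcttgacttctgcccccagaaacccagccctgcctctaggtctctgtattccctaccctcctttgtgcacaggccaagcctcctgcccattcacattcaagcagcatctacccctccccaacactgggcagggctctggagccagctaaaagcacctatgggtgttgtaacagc

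The starts of the 2 genes differ in CpG content. Over the full 250 bases of the RefSeq window, Them4 has 23 CpG and Them5 has 0, against a median of 6 over 32851 promoters. Of these promoters 13.3% have at least as many as Them4 and 7.87% have none.

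The values used below are the authors' corrected 5C frequency of each contact and its Z score, which is the frequency minus that expected at the same distance, divided by the standard deviation there. A contact was called when both libraries of the same cell type gave it a q-value under 0.05. Keratinocyte libraries 1 and 2 listed 95692 and 67210 contacts and thymocyte libraries 1 and 2 listed 45861 and 53420, of which the window held 3291, 2120, 1361 and 1399. A contact that is not listed has no value. The authors removed outlying probes and single very strong contacts, but whether removal left a given contact unlisted was not tested. The study's list of removed single contacts was held only in part, so which unlisted contacts had been removed was not settled here.

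The contact that drew attention to the window joins the Them5 upstream fragment to the fragment chr3:90330428-90332070, 3812 kb away. That fragment holds the start of S100a14 and lies within 10 kb of E2 and of E3. S100a14 encodes a calcium-binding S100 protein of epithelia. The corrected frequency was 409.9 in keratinocyte library 1 and 281 in library 2, and the Z scores were 14.1 and 12.3. Neither thymocyte library listed the contact, so there is no thymocyte value to set against it. By Z score it ranked 37 of 95692 in keratinocyte library 1 and 378 of 67210 in library 2, and 8 of 57186 by the mean of both. Its neighbours were weaker: the next fragment of the enhancer region tested in both keratinocyte libraries, chr3:90322416-90322860 in S100a13, had Z scores of 1.37 and -0.33 with the Them5 upstream fragment. The fragment chr3:90350170-90354911 near S100a16, within 10 kb of E3, had a Z score of 8.63 in keratinocyte library 1 and was not listed in the other 3 libraries.

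**Figure D1:**
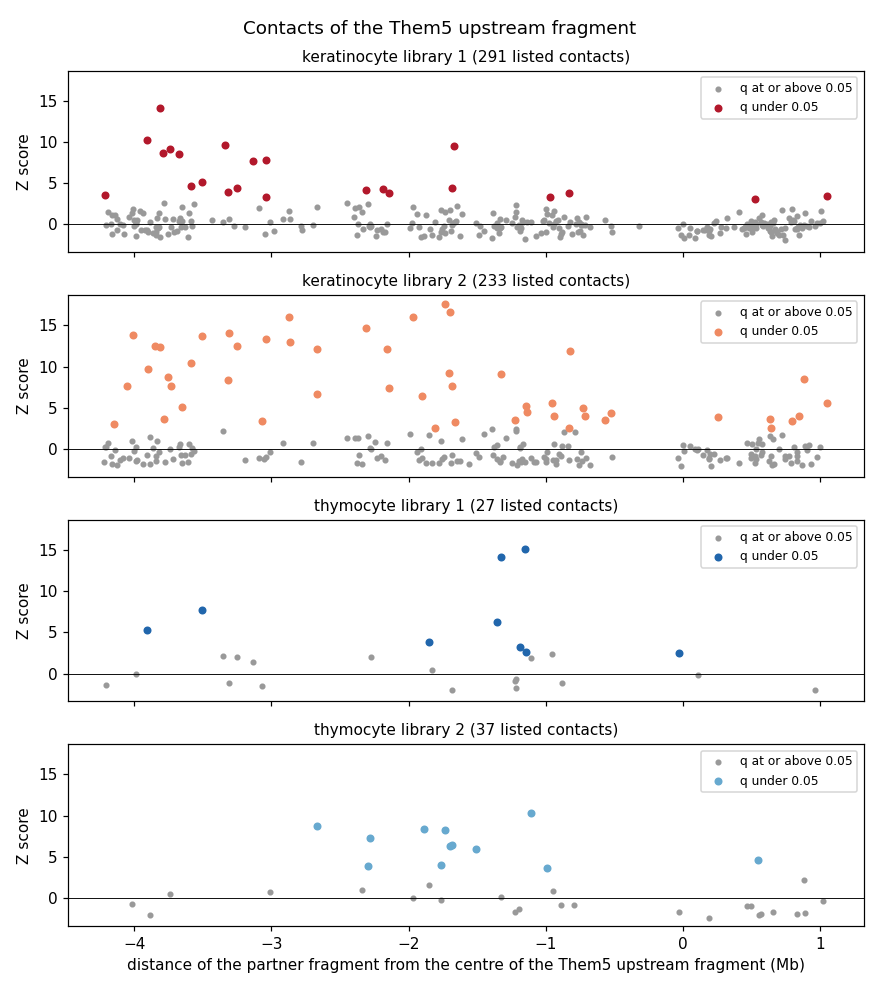
Z score (vertical axis) of every listed contact of the Them5 upstream fragment against the distance of its partner in Mb (horizontal axis), 1 panel per library, coloured points having q under 0.05. The keratinocyte panels hold 291 and 233 contacts and the thymocyte panels 27 and 37.

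The thymocyte libraries listed few contacts of the Them5 upstream fragment. In keratinocytes 291 and 233 of its contacts were listed, 85.3% and 67.1% of the possible partners, but in thymocytes 27 and 37, which is 7.67% and 10.8%. The S100a14 fragment listed 296, 246, 171 and 217 contacts in keratinocyte libraries 1 and 2 and thymocyte libraries 1 and 2, so the low coverage in thymocytes was on the Them5 side. Fragments with under 20% of their partners listed numbered 0, 124, 196 and 147 of 685, 687, 694 and 677 in the same libraries. The median of their mean Z scores was 1.65, 1.71 and 1.80 in the last 3 libraries, against 0.505, 0.509 and 0.699 for the other fragments, so a sparsely listed fragment had high Z scores.

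In keratinocytes the Them5 upstream fragment was called in 10 of the 209 contacts that both libraries listed, against 1.99% over the locus. Like the single-library counts of keratinocytes below, the 10 include the S100a14 contact on which the window was chosen. Their partners lay in TAD1, TAD2, TAD3 and TAD7. In thymocytes both libraries listed only 5 of its contacts, of which 0 were called, against 4.03% over the locus, so too few were listed for a comparison. In single libraries its contacts with q under 0.05 numbered 23 and 51 in keratinocytes, which list 5.99% and 11.4% of all their contacts at that q, and 9 and 12 in thymocytes, which list 11.7% and 14.5%. Besides S100a14, TAD1 held the called partner chr3:90556642-90556855, near Pglyrp4 (a secreted antibacterial protein of skin), with frequencies of 171 and 178. The 5 called partners in gene-poor TAD2 included chr3:91107718-91107989, with frequencies of 277 and 221 and Z scores of 7.77 and 13.3, and chr3:91833533-91835324 in Pglyrp3, with 188 and 211 and Z scores of 4.12 and 14.6. In TAD3 they were a fragment near Sprr2a1 (178 and 153) and chr3:92459033-92460316 in Lce1b, a gene of the late cornified envelope. The last lay in TAD7 near Setdb1, chr3:95190500-95200000, with 326 and 236.

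The Lce1b contact was the only called contact of this fragment that all 4 libraries listed. Its frequencies were 236 and 188 in keratinocytes and 12.8 and 65.1 in thymocytes, with Z scores of 4.47, 7.66, -1.97 and 6.47, so the Z scores of the cell types overlapped. Only 3 contacts of the fragment were listed in all 4 libraries, none of them with E2 or E3. Their mean Z scores were 1.88 and 3.38 in keratinocytes and -0.339 and 5.02 in thymocytes. The cell types overlapped and the keratinocyte mean was higher by 0.288 (exact permutation test of 2 libraries against 2, two-sided p = 1); the difference became -1.06 over the contacts that each library listed. With 2 libraries against 2 this test cannot go below 0.333, here or below.

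In keratinocytes the 3 profiles most like that of the Them5 upstream fragment belonged to fragments in TAD3 and TAD4. How many of the compared fragments lie there was not counted, so no excess is read from this. Over the 242 forward fragments with at least 100 shared partners, the highest Pearson r of mean Z scores was 0.335 with chr3:92612965-92618218 near Kprp, over 100 partners. Next were chr3:92473578 in Lce1a2 with 0.318 over 170 partners and chr3:93149553 near Hrnr with 0.317 over 150. The median r was 0.0206. Fragment 2, the closest of the window, ranked 6 with 0.279, and fragments 4 and 6 ranked 96 and 141 with 0.0646 and -0.003. These values are across partners that share fragments and libraries, and the fragment's own keratinocyte libraries correlated at only 0.451 over 209 contacts.

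**Figure D2:**
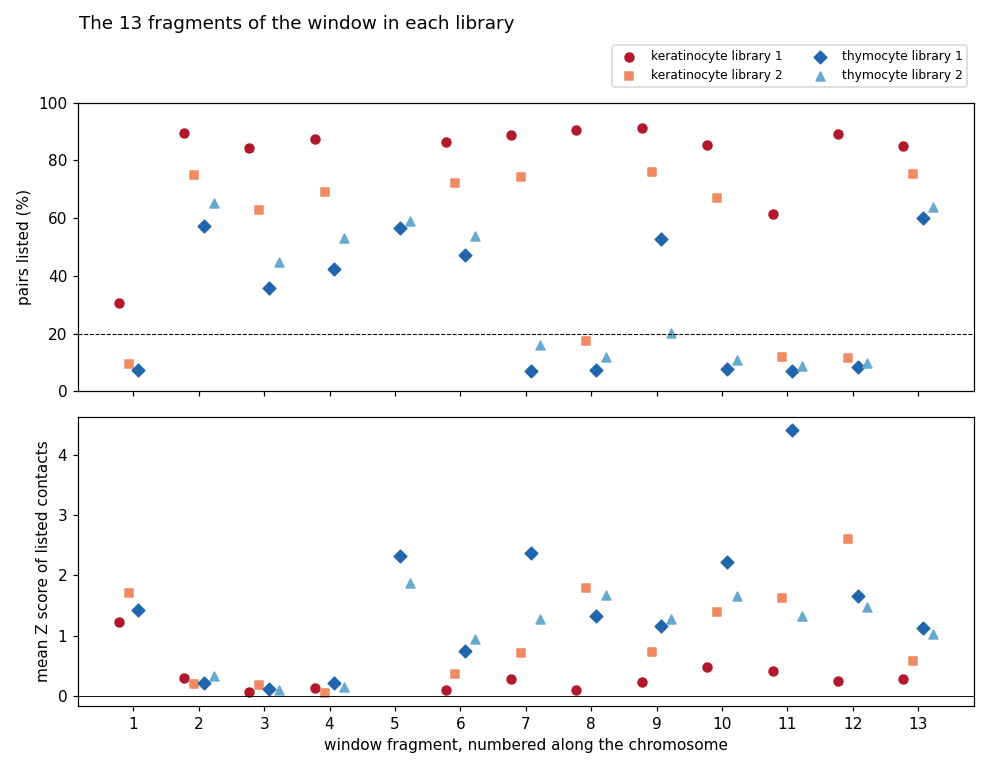
Share of possible partners listed (%) and mean Z score of listed contacts for the 13 fragments of the window, numbered along the chromosome, in each library. Fragment 5, with the Them4 start, has no keratinocyte point, and fragments 7, 8 and 10 to 12 list few partners in thymocytes.

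The fragments of the window were not measured equally well. Fragments 2, 3, 4, 6, 9 and 13 listed over 20% of their partners in every library, between 67 and 314 contacts each. The Them5 gene fragment listed 211 contacts in keratinocyte library 1 but 41, 24 and 29 in keratinocyte library 2 and the thymocyte libraries. Fragments 8 and 12 fell in the same way, from 309 to 60, 26 and 41 and from 304 to 40, 30 and 34. Fragment 7, in the Them4 body, listed 305 and 252 partners in the keratinocyte libraries but 24 and 53 in the others.

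The Them4 start fragment was measured in thymocytes alone, where it listed 193 and 196 contacts; its probe is on the authors' list of removed probes for both keratinocyte libraries. In thymocytes 13 of the 149 contacts that both libraries listed were called, against 4.03% over the locus. The strongest was chr3:90475366-90477851, 1410 bp from S100a8, which encodes a calgranulin of neutrophils and inflamed epidermis: its frequencies were 1176 and 515 and its Z scores 23.9 and 14.6. The other partners in TAD1 lay near S100a3 and S100a7a and in Pglyrp4, with Z scores from 9.27 to 21.7. In TAD6 the Them4 start fragment was called with partners near Mrpl9 (a mitochondrial ribosomal protein), in Riiad1, at 2 places in Snx27 and near Selenbp1. The contact near Mrpl9 had the highest frequencies of these, 1821 and 1428, with Z scores of 20.5 and 13.8. Within the window it was called with fragment 12, just beyond Them5, at frequencies of 1549 and 2367 and Z scores of 3.09 and 5.81, a contact across 33 kb between both genes.

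No keratinocyte value exists for any of these contacts, so none can be called particular to thymocytes. With E2 and E3 the Them4 start fragment differed between the thymocyte libraries: its Z score with chr3:90328486-90330411 was 13.1 in library 1 and -1.22 in library 2, and that with chr3:90342705-90346260 in S100a16 was 13.8 in library 1 with no value in library 2.

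Over the 560 contacts listed in all 4 libraries, the window as a whole had lower Z scores in keratinocytes, as had the locus. The mean Z scores were 0.516 and 0.412 in keratinocytes and 0.655 and 0.582 in thymocytes, and did not overlap, a difference of -0.155 (exact permutation, two-sided p = 0.333). All 23395 contacts of the locus had means of 0.515 and 0.577 in keratinocytes and 0.613 and 0.701 in thymocytes. On the log2 scale of observed over expected frequency the means were -0.05 and 0.01 against 0.09 and 0.01, with p = 0.667 in the same exact test. The median over contacts turned both signs, to 0.106 in Z score and 0.08 in log2. Relative to the other 121 fragments of TAD6, the window's mean Z score differed by 0.091 and -0.118 in keratinocytes and by 0.0871 and -0.034 in thymocytes, which overlapped (exact permutation p = 1).

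Contact by contact, limma on the Z scores of all 23395 contacts called 0 of the window's contacts after Benjamini-Hochberg adjustment, and 0 elsewhere; the smallest adjusted p was 0.767. At an unadjusted p under 0.05 it gave 43 of the window's 560 contacts, 7.68%, against 5.11% of all contacts, with 28 higher in keratinocytes and 15 higher in thymocytes; the split turned to 10 and 37 without thymocyte library 1, to 9 and 30 without thymocyte library 2, and was 21 and 20 without the trend. The Z scores of both keratinocyte libraries lay above both thymocyte libraries in 129 of the window's contacts, 23%, against 21.1% of all contacts. The reverse held for 130 contacts, 23.2%, against 19.1%.

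In keratinocytes 45 of the 1931 window contacts listed in both libraries were called, 2.33% against 1.99% over the locus. The 45 include the S100a14 contact on which the window was chosen. In thymocytes 44 of 832 were called, 5.29% against 4.03%. The shares of the window were near those of the locus in both cell types, but the partners lay at different places. The measured fragments also differed: 13 of the 44 thymocyte calls belonged to the Them4 start fragment, which keratinocytes did not list. Fragments 1, 7 and 10 had 2, 5 and 10 keratinocyte calls, but both thymocyte libraries listed only 0, 5 and 5 of their contacts. The distances are therefore not compared over the same fragments. The called contacts of keratinocytes spanned a median of 2143 kb and 37 of 45 spanned at least 1000 kb, which is 82.2% against 62% of the window's listed contacts and 61.1% of all called contacts. Those of thymocytes spanned a median of 783 kb and 17 of 44 spanned at least 1000 kb, 38.6% against 54.2% of listed contacts and 49.2% of all called contacts.

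**Figure D3:**
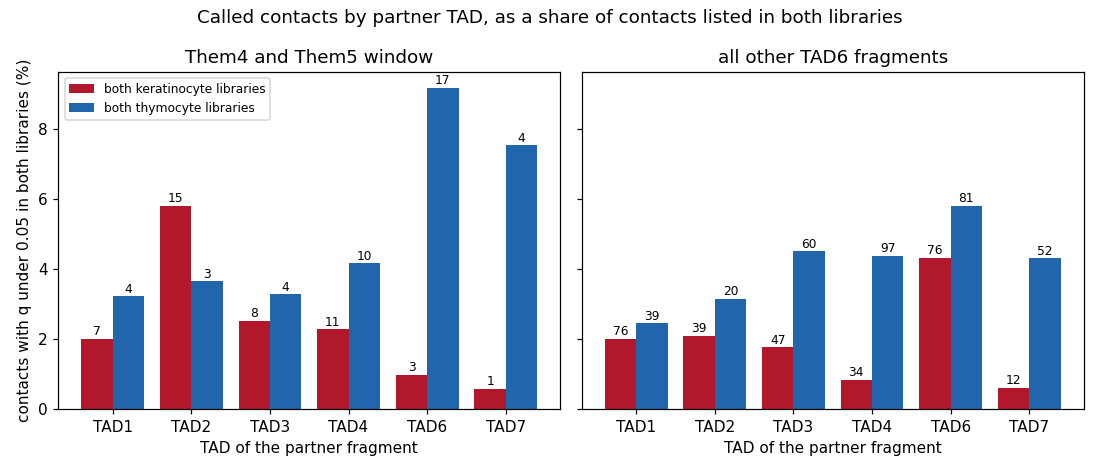
Contacts with q under 0.05 in both libraries as a share of contacts listed in both (%), by the TAD of the partner, for the window and for the other fragments of TAD6, in keratinocytes and thymocytes. Partners in TAD5 are not shown. With partners in TAD6 the window was called in 0.974% of keratinocyte and 9.19% of thymocyte contacts. The thymocyte share includes 5 calls of the Them4 start fragment, which keratinocytes did not list.

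With TAD1 to TAD4, which hold the EDC, the window had 41 called contacts of 1407 listed in keratinocytes, 2.91%, and 21 of 568 in thymocytes, 3.7%. The 41 include the S100a14 contact on which the window was chosen. The other fragments of TAD6 had 196 of 12375, 1.58%, and 216 of 5761, 3.75%. Within TAD1 to TAD4 the keratinocyte share was highest with gene-poor TAD2, where 15 of 258 window contacts were called, 5.81% against 2.1% for the rest of TAD6. With the rest of TAD6 the window had 3 called contacts of 308 in keratinocytes, 0.974%, and 17 of 185 in thymocytes, 9.19%. Among themselves the other TAD6 fragments had 76 of 1757, 4.33%, and 81 of 1392, 5.82%. Of the window's thymocyte calls, 13 belonged to the Them4 start fragment, which keratinocytes did not list, and without it 31 thymocyte calls were left. With TAD6 partners that fragment had 5 calls among 22 contacts listed in both thymocyte libraries. The TAD6 shares of the cell types are therefore not over the same fragments.

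The called contacts of the cell types could be compared for a minority of them. Of the 45 called in keratinocytes, 14 were listed in both thymocyte libraries, 15 in 1 and 16 in neither, and 12 had a q under 0.05 in at least 1 thymocyte library. Of the 44 called in thymocytes, 20 were listed in both keratinocyte libraries, 8 in 1 and 16 in neither, and 8 had a q under 0.05 in at least 1 keratinocyte library. Where every library gave a value, 12 contacts were called in keratinocytes alone, 2.14% against 1.45% of all such contacts, 18 in thymocytes alone, 3.21% against 3.19%, and 2 in both, 0.357% against 0.581%.

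The 2 contacts called in both cell types were strong in thymocytes. Fragment 9 met chr3:92408654-92408842 near Lce6a with frequencies of 170.3 and 202 in keratinocytes and 172 and 182 in thymocytes, and Z scores of 3.23, 10.2, 7.98 and 17.1. Fragment 13 met chr3:94601267-94607154 near Cgn, which encodes the tight-junction protein cingulin, with frequencies of 666, 478, 938 and 644 and Z scores of 2.69, 4.47, 20.2 and 11.5. For the Cgn contact the Z scores of the cell types did not overlap.

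Within 10 kb of E2 or E3, both keratinocyte libraries listed 14 window contacts, and apart from the S100a14 contact on which the window was chosen 1 of them was called, against 1.99% of all contacts. It joined fragment 13 to chr3:90316587-90322415, which holds the starts of S100a1 and S100a13, with frequencies of 126 and 82.7 in keratinocytes and 68.2 and 57.2 in thymocytes. Its Z scores of 2.91 and 2.53 lay above the -0.736 and -0.932 of thymocytes. The 3 contacts near E2 listed in all 4 libraries had mean Z scores of 0.919 and 0.676 in keratinocytes and 0.0987 and 0.396 in thymocytes (exact permutation p = 0.333, adjusted over the enhancers 0.667), and the difference turned from 0.551 to -0.0601 over the contacts that each library listed. In thymocytes, fragment 5 was called with a partner near E4 and E5 and with a partner near E11, contacts with no keratinocyte value, and fragment 13 with a partner near E14.

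The enhancers E9 and E10 lie among the Flg-like genes in TAD4. The window's 21 contacts near E9 had mean Z scores of 1.97 and 0.781 in keratinocytes and -0.0325 and -0.0437 in thymocytes. Its 4 contacts near E10 had 1.52 and 1.20 against 0.533 and 0.186. Neither overlapped between cell types, and neither could pass the test (exact permutation p = 0.333, adjusted 0.667). Near E10, 3 of 21 contacts were called in keratinocytes, against 1.99% over the locus: fragment 2 with chr3:93169465-93170737, with frequencies of 357 and 219, fragment 12 with chr3:93150414-93155642 near Hrnr, with 572 and 266, and fragment 13 with chr3:93164549-93169464, with 329 and 261. Thymocytes listed these in at most 1 library, at 4.28, 153 and 195, with Z scores of -2.09, 2.98 and 6.79. The keratinocyte Z scores were 3.61 and 4.71, 6.55 and 5.24, and 2.77 and 5.44. For the last contact the thymocyte Z score was therefore the higher. Near E9, fragment 13 was called with chr3:92930962-92932925 near Crnn, at 249.8 and 258 in keratinocytes and 147 in thymocyte library 2. The Z score of 5.41 in that thymocyte library lay between the keratinocyte values of 2.91 and 6.65.

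Among the gene families of the EDC, the largest keratinocyte excess was with the Flg-like genes, which encode the fused-type S100 proteins of the granular layer and the hair follicle. The window's 36 contacts within 5 kb of Crnn, Flg, Flg2, Hrnr, Rptn, Tchh and Tchhl1 had mean Z scores of 1.49 and 0.750 in keratinocytes and -0.0561 and 0.252 in thymocytes. Called contacts with these genes were near the share of the locus or too few to read, with 3 of 109 in keratinocytes, 2.75% against 1.99%, and 0 of 48 in thymocytes, against 4.03%. The 32 contacts with Lce genes had 0.918 and 0.535 against -0.0134 and 0.108. The 13 contacts with the S100 genes of TAD1 (0.292 and 0.944 against 0.746 and 0.0392) and the 14 with Sprr genes (0.388 and 0.196 against -0.128 and 1.03) overlapped between cell types, as did the 2 contacts with Lor (1.27 and 0.969 against 0.990 and 16.5). None of the 11 gene groups passed the test, with adjusted p of at least 0.733 in the exact permutation test.

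**Figure D4:**
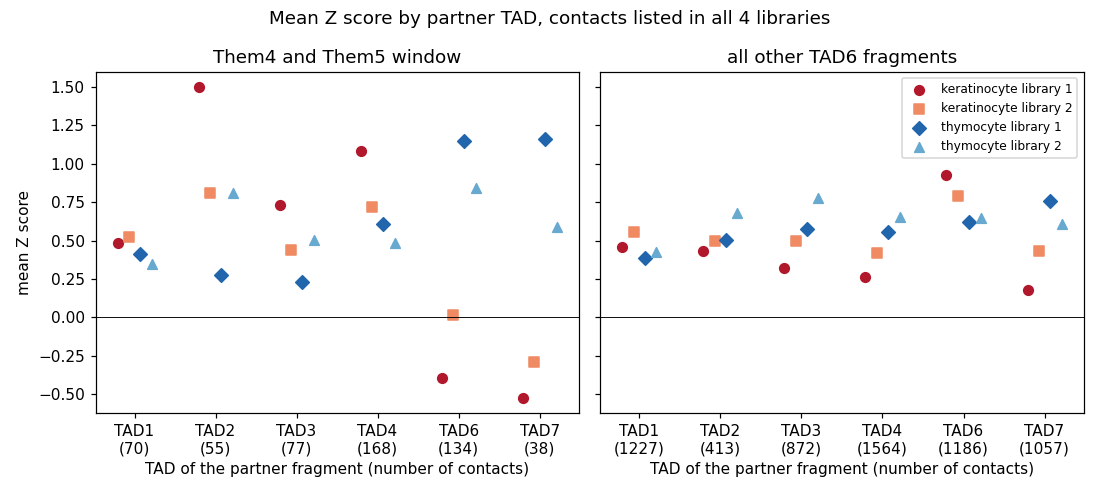
Mean Z score of contacts listed in all 4 libraries, by the TAD of the partner, for the window and for the other fragments of TAD6, with 1 point per library. Partners in TAD5 are not shown. With TAD6 partners both keratinocyte points of the window lie below both thymocyte points, and for the rest of TAD6 above them.

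By partner TAD, the window's contacts with its own domain and with TAD7 were higher in thymocytes. Those with TAD1 to TAD4, which hold the EDC, and with TAD5 outside it were higher in keratinocytes. The 134 contacts with TAD6 had mean Z scores of -0.397 and 0.0146 in keratinocytes and 1.15 and 0.841 in thymocytes. The keratinocyte mean was -0.191 ± 0.291 (SD, n = 2) and the thymocyte mean 0.993 ± 0.215 (SD, n = 2), a difference of -1.18. The rest of TAD6 went the other way, with 0.929 and 0.791 against 0.621 and 0.644 over 1186 contacts. The window minus the rest of TAD6 gave -1.33 and -0.777 in keratinocytes and 0.524 and 0.197 in thymocytes, which did not overlap, a difference of -1.41 (exact permutation p = 0.333, the smallest possible).

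The gap was spread over many contacts, but it was smaller by medians. The medians over the TAD6 contacts were -0.212 in keratinocytes and 0.297 in thymocytes, a difference of -0.509 against -1.18 by means. Both thymocyte libraries lay above both keratinocyte libraries in 56 of the window's 134 contacts with TAD6, 41.8% against 19.1% of all contacts in the locus and 10.6% in the rest of TAD6. The keratinocyte libraries lay above in 15, 11.2% against 21.1% of all contacts and 29.3% in the rest of TAD6. At 100 to 200 kb the 24 window contacts had mean Z scores of -1.09 and -0.301 in keratinocytes and 1.71 and 1.36 in thymocytes, and at 400 to 1000 kb the 71 contacts had 0.0379 and 0.218 against 1.21 and 0.714. With both fragments having over 20% of their partners listed, 125 contacts gave a difference of -0.897.

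The fragments of the window with most TAD6 contacts in all 4 libraries each had a higher mean Z score in thymocytes. For fragment 13 the 32 contacts had -0.068 and -0.178 in keratinocytes and 1.82 and 1.86 in thymocytes. For fragment 6, in the Them4 body, the 25 contacts had -0.077 and 0.160 against 0.814 and 1.01. For fragments 2 and 4, before Them4, the differences were -0.706 over 28 contacts and -0.574 over 22. The cell types did not overlap in any of these 4 fragments; in fragments 3 and 9 they did.

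With TAD7 the window's 38 contacts had mean Z scores of -0.522 and -0.288 in keratinocytes and 1.16 and 0.590 in thymocytes, a difference of -1.28. By medians it was -0.451, from -0.45 in keratinocytes and 0.00128 in thymocytes. The rest of TAD6 also had lower values in keratinocytes there, 0.179 and 0.433 against 0.757 and 0.610. With TAD1 to TAD4 the window's 370 contacts had 0.959 and 0.636 in keratinocytes and 0.443 and 0.512 in thymocytes, a difference of 0.320, against -0.141 over 4076 contacts for the rest of TAD6. The difference of -0.202 over the contacts that each library listed had the opposite sign. TAD4 had the largest number of these contacts, 168, with 1.09 and 0.717 against 0.607 and 0.484. TAD2 had the highest keratinocyte mean, with 1.5 and 0.807 against 0.275 and 0.812 over 55 contacts, and overlapped between cell types. TAD3 overlapped as well, with 0.733 and 0.440 against 0.228 and 0.504 over 77 contacts. With TAD1 the difference was 0.119, near the 0.104 of the rest of TAD6. With gene-poor TAD5 the 11 contacts had 0.684 and 0.389 against 0.248 and 0.316, a difference of 0.254, and did not overlap. For each of the 7 partner TADs the adjusted p of the exact permutation test was at least 0.467.

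**Figure D5:**
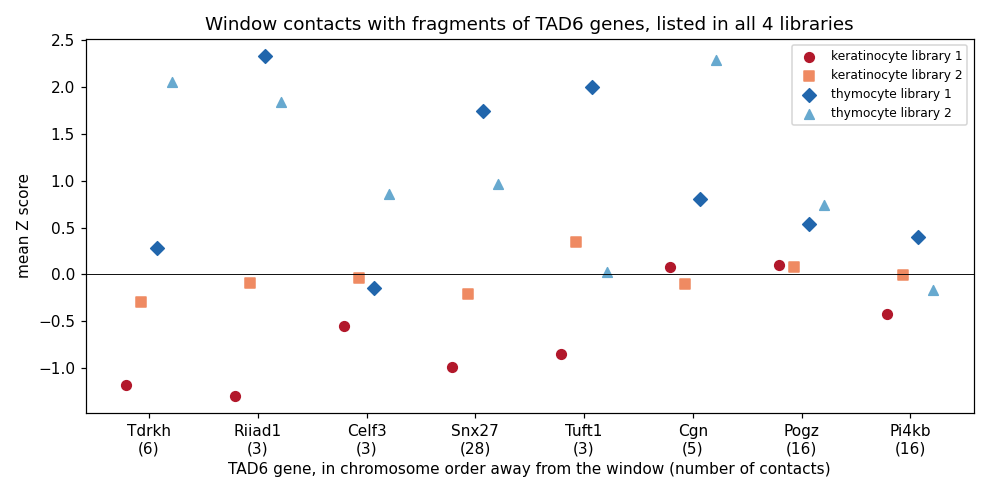
Mean Z score of the window's contacts with fragments that overlap a TAD6 gene, for 8 genes with at least 3 contacts listed in all 4 libraries, ordered along the chromosome, with 1 point per library. In 5 of the 8 genes both thymocyte points lie above both keratinocyte points, and in the others they overlap.

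By gene, contacts with fragments that overlap other genes of TAD6 were compared for 8 genes with at least 3 contacts in all 4 libraries. In 5 of them both thymocyte libraries lay above both keratinocyte libraries. Snx27, which encodes a sorting nexin of endosomal recycling, had the most: 28 contacts with mean Z scores of -0.982 and -0.208 in keratinocytes and 1.74 and 0.961 in thymocytes. With Snx27 the window had 0 of 42 contacts called in keratinocytes, against 1.99% over the locus, and 6 of 41 in thymocytes, against 4.03%. Of these 6, the 2 of the Them4 start fragment and that of fragment 13 with chr3:94360538-94365313 had no keratinocyte value. Riiad1 had -1.30 and -0.0956 against 2.33 and 1.84 over 3 contacts. Tdrkh, a tudor-domain protein of the piRNA pathway, had -1.18 and -0.289 against 0.279 and 2.06 over 6.

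Farther along, Cgn had 0.0758 and -0.107 in keratinocytes and 0.807 and 2.29 in thymocytes over 5 contacts, and Pogz, a zinc finger protein of chromatin, had 0.0961 and 0.0792 against 0.541 and 0.738 over 16. Celf3, Tuft1 and Pi4kb overlapped between cell types. None of the 8 genes passed the test (smallest adjusted p = 0.533, exact permutation). Within 5 kb of any of 20 other TAD6 genes, 0 of 253 window contacts were called in keratinocytes, against 1.99% over the locus. The 3 called keratinocyte contacts with TAD6 lay 10853 to 22749 bp from the nearest gene. In thymocytes 14 of 151 were called, 9.27% against 4.03% over the locus, of which those of the Them4 start fragment had no keratinocyte value.

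Of the contacts listed in all 4 libraries whose cell types did not overlap, those with the largest differences mostly belonged to fragment 13, just beyond Them5. The largest keratinocyte excess was with chr3:93451999-93458598 near Tdpoz1 in TAD4, with frequencies of 1373 and 398 in keratinocytes and 147 and 105 in thymocytes, and Z scores of 14.5, 9.28, 3.74 and 1.68. Next by Z score were chr3:91274127-91275028 in gene-poor TAD2, with frequencies of 286, 69.8, 30.9 and 27.2, chr3:92993662-92999573 near Flg2, with 394, 159, 18.3 and 16.7, and chr3:90559673 near Pglyrp4, with 250.3, 59.7, 58.2 and 32.3. In each of these the frequency of keratinocyte library 1 was over that of library 2 by a wide margin. The fifth joined fragment 9 to 2500003M10Rik in TAD1, with 239 and 166 in keratinocytes and 309 and 67.8 in thymocytes; its Z scores of 6.55, 7.77, 4.25 and -0.63 did not overlap although its frequencies did.

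On the thymocyte side the largest excess was that of fragment 13 with chr3:92810148-92810769 near Crct1, with frequencies of 67.7 and 74.2 in keratinocytes and 359 and 144 in thymocytes and Z scores of -0.363, 1.59, 22.6 and 4.54. Its contact with chr3:94336601-94339317 in Snx27 was the steadier between libraries, with frequencies of 457 and 349 against 1475 and 1234 and Z scores of -0.287 and 0.316 against 15.2 and 10.4. The others were the Cgn contact of fragment 13 given above, fragment 6 with chr3:94607219-94613162 near Cgn (frequencies of 301, 169, 268 and 584), and fragment 13 with chr3:92780585-92784757 near 2310001H18Rik (1.04, 13.4, 94.4 and 183).

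The strongest called contact of each other fragment lay mostly in TAD1 to TAD4 in keratinocytes. Those TADs also held 1407 of the 1931 window contacts listed in both keratinocyte libraries, so no excess is read from this. Fragment 1 was strongest with Lce3a (frequencies of 351 and 266, Z scores of 5.32 and 9.71), fragment 8 with a fragment near Flg2 (Z scores of 2.70 and 7.71) and fragment 12 with Lce1a2 (482 and 195, Z scores of 11.9 and 8.27). Fragments 7 and 9 shared their strongest partner, chr3:90689590-90693031 in TAD2, with Z scores of 5.53 and 15.9 and of 2.78 and 13.5. For fragment 2 it was chr3:91782599-91785267, also in TAD2 (Z scores of 5.14 and 5.40). The Them5 gene fragment was the exception, with 1 called keratinocyte contact, near Psmb4 (a proteasome subunit) in TAD6, at frequencies of 611 and 375 and Z scores of 3.31 and 3.28.

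In thymocytes the strongest called contacts lay both in the EDC and in TAD6. Fragment 6 was strongest with Tuft1, which encodes tuftelin, at frequencies of 1162 and 895 and Z scores of 18.2 and 15.4, with no keratinocyte value. Fragment 8 was strongest with chr3:94313432-94318837 in Snx27 (466 and 587), a partner that fragment 6 shared (411 and 701), and fragment 4 with chr3:94643285-94644371 in Pogz (155 and 213). The Them5 gene fragment was strongest with chr3:95142771-95143984 in Setdb1, a histone methyltransferase gene of TAD7 (238 and 105). Fragment 2 was strongest near Gm4858 in TAD4 (224 and 273), and fragment 12 with chr3:91851141-91852018 near Pglyrp3 (119 and 66.2).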

How the data were processed

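The 4 libraries were aligned with Bowtie (version not given in the sources used here) to the probe sequences on mm9 by the authors, who counted probe pairs, removed outlying probes and single contacts, and corrected each probe for coverage. The deposited signal is the corrected frequency, with an expected frequency and SD from a Loess fit; the deposited score is the Z score. The authors' p-value and q-value come from a Weibull fit within each library. The other deposited values are coordinates and distances in kb. Read depth is unknown, so no counting error is given.

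Here, group means over contacts listed in all 4 libraries were compared with two-sided exact permutation tests over libraries, and Z scores of 23395 contacts with limma 3.58.1 (R 4.3.3; lmFit, eBayes with trend, adjusted p threshold 0.05), which was tested on simulated data. TADs and enhancers (within 10 kb) follow the study's annotation. Gene groups hold fragments within 5 kb of a gene, whereas a single fragment described as near a gene is named after the nearest gene, up to 29376 bp away. The window, gene lists and tests were chosen with earlier results of these data known. Contacts named are those called near E2, E3, E9 or E10, the strongest called contact of each fragment per cell type, the 5 largest non-overlapping differences in each direction and the 3 profiles most like that of the Them5 upstream fragment; the other called contacts of fragments 5 and 10 were named after their values were seen. Probe ends matched mm9 exactly over 30 bases for 737 of 761 probes. Alternatives covered q thresholds, scales, medians, listing rules, left-out fragments and libraries, and a replicate block; those on partner TADs and sparsely listed fragments were added after seeing the data. A result on 1 more gene of TAD6 is not reported here, so the comparison by gene does not cover the whole domain.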

Additional observations from a re-analysis of the deposited data

Results flagged for a closer look

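In 3 comparisons the mean Z score of the window minus that of the other fragments of TAD6 had 1 sign in both keratinocyte libraries and the opposite sign in both thymocyte libraries. For contacts with TAD6 this value differed by -1.41 between the cell types. For contacts with TAD6 and TAD7 together it differed by -1.15, from values of -1.0 and -0.675 in keratinocytes and 0.464 and 0.158 in thymocytes. For contacts with TAD1 to TAD4 it differed by 0.461, from 0.608 and 0.152 in keratinocytes and -0.0614 and -0.102 in thymocytes. Each had p = 0.333 in the two-sided exact permutation test, the smallest that 2 libraries against 2 allow, and 8 partner sets were compared. The TAD6 contacts are part of the second comparison, so these 2 are not separate.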

How the results depend on the processing

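Of 110 recomputed values, 94 kept the sign of a difference, stayed near the main count of called contacts or repeated the limma count. The size of a difference could change, and the replicate block leaves a difference unchanged by construction. Other alternatives left the same contacts and are no separate check. The 3 contacts with E2 and E3 stayed at 50 kb or more and without the Them5 upstream fragment, as did the 560 under an overlap rule. None of the 45 keratinocyte calls belonged to the Them4 start fragment and none of the 44 thymocyte calls to the Them5 upstream fragment. Taking medians turned the difference of the window's mean Z score to 0.106, that of log2 observed over expected to 0.083 and that of the Them5 upstream fragment to -0.601. Using the contacts each library lists turned those with E2 and E3 to -0.0601, of the Them5 upstream fragment to -1.06 and with TAD1 to TAD4 to -0.202. Leaving out 1 library gave differences of -0.144 to 0.0644 for the window minus the rest of TAD6 and of -2.39 to 2.97 for the Them5 upstream fragment, with both signs. The ranges otherwise kept their sign: -0.207 to -0.103 for the window's Z score, -0.11 to -0.03 for log2 observed over expected, 0.08 to 0.78 for log2 frequency, whose difference of 0.43 became 1.5 with the libraries scaled to one total, 0.402 to 0.699 with E2 and E3, -1.39 to -0.978 with TAD6, -1.57 to -0.995 with TAD7 and 0.159 to 0.482 with TAD1 to TAD4. Called contacts fell from 45 to 14 in keratinocytes and from 44 to 20 in thymocytes over contacts listed in all 4 libraries; with 1 library alone they were 223 to 269 and 215 to 224. Without fragment 13 the calls were 35 and 32. In limma the number of window contacts at an unadjusted p under 0.05 ranged from 27 to 100 over 9 settings, with 0 adjusted calls in each; leaving out keratinocyte library 2 gave the 100. With the replicate number as a block, limma gave 0 calls, and the exact sign-flip permutation test over 2 pairs, which cannot go below 0.5, gave p = 0.5 or 1. Libraries share only a number: same-numbered libraries correlated at -0.0937 in their deviations.

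Limits: 2 libraries per cell type leave every exact test above 0.05, sparsely listed fragments have high Z scores, and contacts that share a fragment are not independent. Frequencies were not scaled between libraries, so levels are compared through Z scores.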
